A study of Homo sapiens with 12 samples.

Results

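The androgen-regulated prostate genes are 55 genes listed by symbol as known to be regulated by androgen in the prostate, among them KLK3, TMPRSS2 and FKBP5, and 51 of them had a row among the 14828 genes of the expression table. STEAP4, ALDH1A3, MAF and TRPM8 had no row and were not analysed here. The genes were followed in 22Rv1, an established human prostate carcinoma cell line, stably carrying a lentiviral, doxycycline-inducible vector that encodes a nontargeting shRNA (shNT) or 1 of 2 shRNAs against CENPA (shCENPA1 and shCENPA2). The shRNAs were induced with doxycycline at 2 μg/ml for 72 h in serum-containing medium. The sources used here do not say in so many words that the shNT cells received it too, and they name no addition or withdrawal of androgen. The lines were selected with puromycin, and whether each is a clone or a pool is not given in the sources used here. Poly(A) RNA was sequenced from 2 libraries per shRNA, each sequenced on lanes 7 and 8, and the values of both lanes were averaged. Expression is given as log2 RPKM, which scales a gene's reads by its length and by the depth of the run, so that a difference of 1 is a doubling. Nothing in the sources says that the libraries came from separate cultures, so p-values measure the spread between these libraries, which may be technical.

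Testosterone and dihydrotestosterone change transcription in prostate cells through androgen response elements, which are pairs of half-sites in DNA. In luminal prostate cells this response, together with pioneer factors such as FOXA1, HOXB13 and GATA2, drives secreted proteases, surface antigens, lipid enzymes and feedback regulators. The serum level of one of its products, prostate-specific antigen (encoded by KLK3), is used to follow prostate cancer.

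The libraries held 79172294 to 133074655 reads on genes. The chi-square per gene was 1.24 to 1.31 between lanes of a library and 26.5 to 80.1 between libraries of a shRNA, where sampling noise alone gives a value near 1, so the library was the replicate (n = 2 per shRNA). CENPA itself had 2.46 and 2.18 log2 RPKM in shNT, 0.50 and 0.58 in shCENPA1 and -0.47 and -0.41 in shCENPA2 libraries. Both knockdowns lay below the control in both of their libraries, by 70.9% with shCENPA1 (adjusted p = 0.000287, limma with Benjamini-Hochberg adjustment) and by 85.3% with shCENPA2 (adjusted p = 1.13e-05). CENPA was lower with shCENPA2 than with shCENPA1 by a log2 difference of -0.98 ± 0.16 (SE, adjusted p = 0.0209), a call lost without shCENPA1 library 1, shCENPA1 library 2 or shCENPA2 library 2 (adjusted p = 0.0908, 0.212 and 0.0571). That call of CENPA between the shRNAs was also lost with limma-voom on recovered reads (adjusted p = 0.0981) and in limma with 1 added to the RPKM (adjusted p = 0.0601). With 2 libraries against 2, an exact two-sided permutation test of a single gene cannot go below p = 0.333, and the p-values here therefore come from the model fitted over all genes.

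Androgen-regulated genes were among the better expressed genes of these cells, with a median of 3.71 log2 RPKM in shNT against 2.36 over all genes tested. Of the 51 genes, 21 exceeded 4 log2 RPKM in shNT and 6 lay under 0. All 51 passed the filter on low values. KLK3 was among the lowest, whereas FOLH1, SPDEF and GSR were among the highest. Between libraries, the median SD over the 51 genes on the log2 scale was 0.0396 in shNT against 0.0908 in shCENPA1 and 0.0882 in shCENPA2. Over all genes tested it was larger, at 0.063, 0.115 and 0.118, and likewise wider in the knockdowns.

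Depletion of CENPA was accompanied by lower levels of many of these genes, more of them with shCENPA2. With shCENPA1, 10 of 51 genes were lower (19.6%, against 4.45% of all 14624 genes tested) and 2 were higher (3.92%, against 2.69%) at an adjusted p under 0.05, the threshold used throughout. With shCENPA2, 21 were lower (41.2%, against 10.5%) and 5 were higher (9.8%, against 8.05%). The genes lower with shCENPA1 were KLK4, ACPP, STEAP1, STEAP2, FKBP5, ZBTB10, PMEPA1, HPGD, ACSL3 and RAB4A. Those lower with shCENPA2 were KLK2, KLK3, KLK4, TMPRSS2, ACPP, STEAP1, STEAP2, FKBP5, ELL2, ZBTB10, SPDEF, PMEPA1, INPP4B, PTK2B, NDRG1, SORD, HPGD, ACSL3, KRT19, TPD52 and PART1. The shNT libraries serve as control in each comparison, so names that recur are not separate evidence.

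A stricter call, which also required the level to halve or double, held for 0 lower genes with shCENPA1 (1.83% of all genes tested) and for 12 with shCENPA2 (23.5%, against 4.45%). At the same call, 1 gene was higher with shCENPA1 (IQGAP2, against 0.821% of all genes) and 2 were higher with shCENPA2 (IQGAP2 and SLC26A2, 3.92% against 1.68%). The count of genes lower with shCENPA1 fell to 5 without shNT library 1, without shNT library 2 or without shCENPA1 library 2, and to 6 without shCENPA1 library 1. The count higher with shCENPA1 was 0 without either shNT library or without shCENPA1 library 1, 1 without shCENPA1 library 2 and 3 without either shCENPA2 library, and that higher with shCENPA2 was 3 without shNT library 1 or shCENPA2 library 2 and 2 without shNT library 2.

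**Figure D1:**
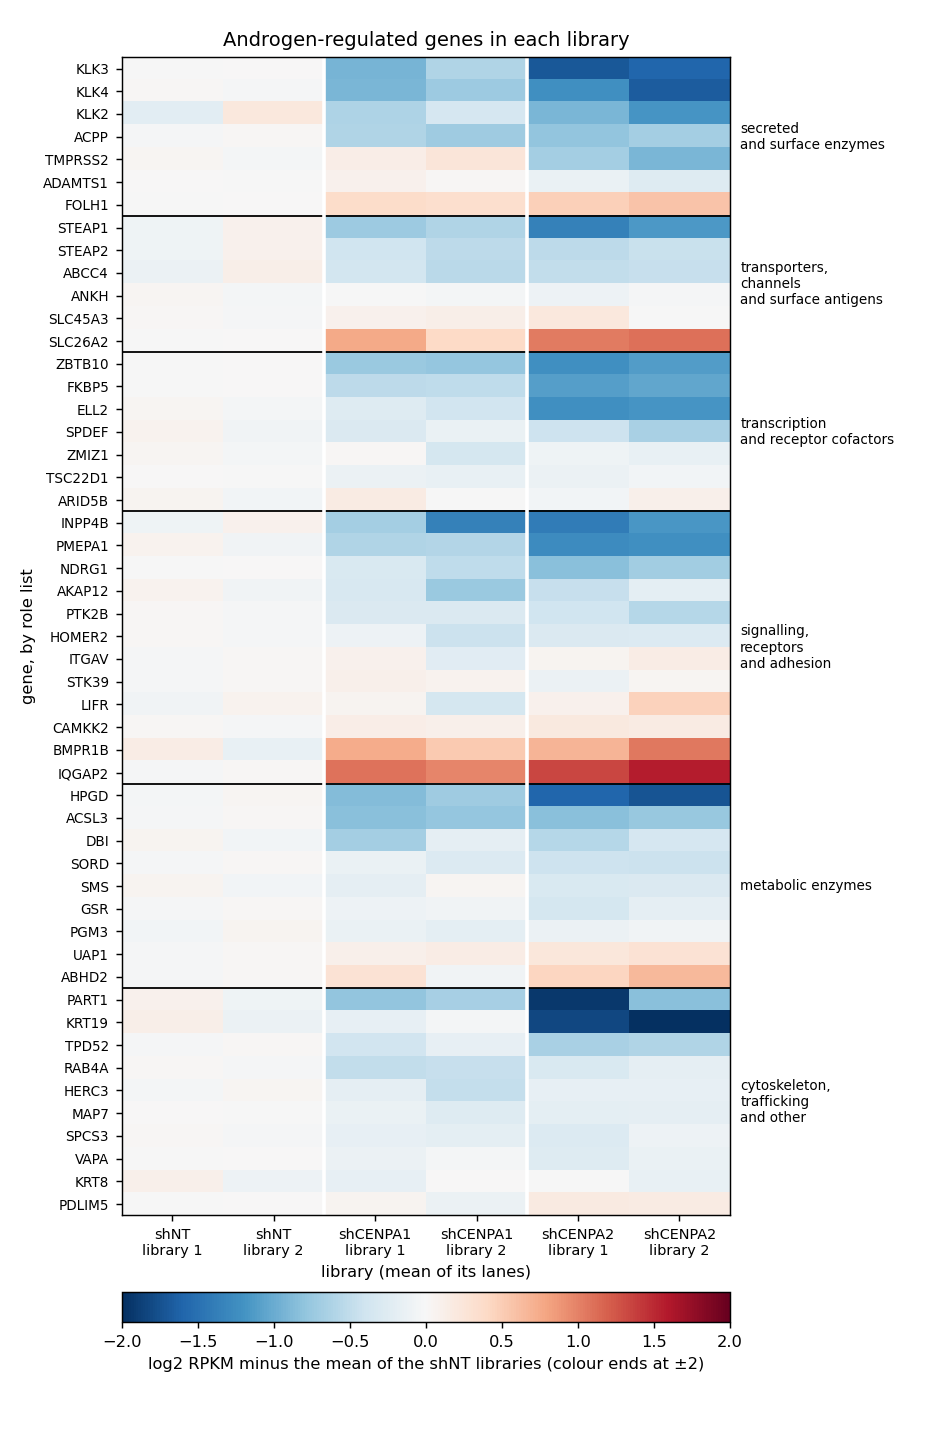
Heat map of the 51 genes (rows, grouped by role and ordered by mean change within a role) in the 6 libraries (columns), coloured by log2 RPKM minus the mean of the shNT libraries, with the colour ending at ±2. Both shCENPA2 columns are blue (lower) for HPGD, KLK3, KLK4, KRT19 and STEAP1 and red (higher) for IQGAP2 and SLC26A2, and KRT19 is pale in both shCENPA1 columns.

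Over all 51 genes, those past the test included, median log2 fold changes reached -0.20 for shCENPA1 and -0.28 for shCENPA2, against 0.00 and 0.01 over all genes tested. By library, the median difference from the mean of shNT was -0.17 and -0.22 in the shCENPA1 libraries and -0.31 and -0.26 in the shCENPA2 libraries. The fold change was negative for 39 of 51 genes with shCENPA1 (76.5%, against 49.4% of all genes tested) and likewise for 39 with shCENPA2 (against 48.4%). Both knockdown libraries lay below both shNT libraries for 31 genes with shCENPA1 (60.8%, against 27.1%) and for 36 with shCENPA2 (70.6%, against 31% of all genes). They lay above both for 10 genes with each shRNA (19.6%, against 29.9% and 31.5%). In these bulk libraries, fewer cells of a kind and less RNA per cell cannot be told apart.

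**Figure D2:**
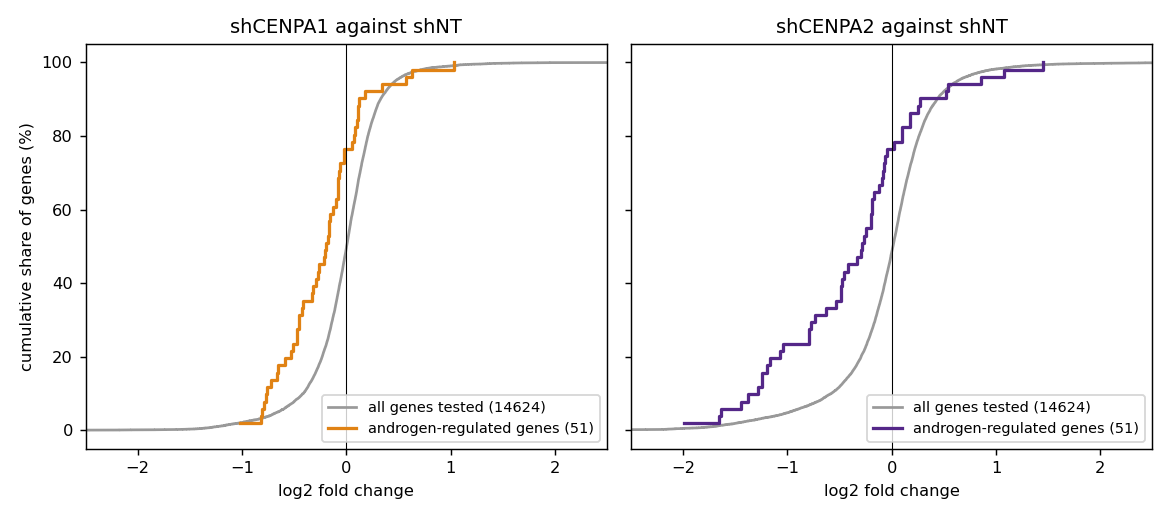
Cumulative share of genes (y axis, %) with a log2 fold change against shNT up to the value on the x axis, for the 51 androgen-regulated genes (coloured) and all 14624 genes tested (gray), with shCENPA1 on the left and shCENPA2 on the right. At a fold change of 0 the coloured lines stand at 76.5% in both panels and the gray lines near 49.4% and 48.4%.

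Promoters of the genes were read from RefSeq (GRCh38.p14, 250 bases before to 50 after the start of transcription, 300 bases in all) to see whether the letters of an androgen response half-site stand close to the start. A promoter was found for 39 of the 51 genes. Only the first promoter listed for a gene was used, whereas the share over all promoters counts every one listed. The half-site AGAACA, searched as written and, by its reverse complement TGTTCT, on the other strand, was present as AGAACA in 4 of 39 promoters (10.3%, against 8.01% of all 35116 promoters) and as TGTTCT in 0 (against 7.7%). The full element, AGAACA followed by any 3 bases and TGTTCT, was in 1 promoter of all and in none of the 39. Most androgen response elements in use are known to lie in distal enhancers, which these windows do not cover. The 3 promoters printed here belong to the genes that hold a match and were lower with shCENPA2, with the match in capitals. In KLK3 (chr19:50854665-50854964, plus strand) the match begins at base -170, where the start of transcription is 1 and the base before it is -1, and this promoter is known for an androgen response element. In PMEPA1 (chr20:57711423-57711722, minus strand) it begins at base 23, and in FKBP5 (chr6:35728534-35728833, minus strand) at base 1, and FKBP5 is known to be driven by androgen from intronic enhancers.
KLK3: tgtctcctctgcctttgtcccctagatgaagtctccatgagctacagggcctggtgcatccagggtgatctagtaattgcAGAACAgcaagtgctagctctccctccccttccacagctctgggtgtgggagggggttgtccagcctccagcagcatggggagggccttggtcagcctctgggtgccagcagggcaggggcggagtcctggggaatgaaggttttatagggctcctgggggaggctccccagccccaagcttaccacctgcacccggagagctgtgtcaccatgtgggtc
PMEPA1: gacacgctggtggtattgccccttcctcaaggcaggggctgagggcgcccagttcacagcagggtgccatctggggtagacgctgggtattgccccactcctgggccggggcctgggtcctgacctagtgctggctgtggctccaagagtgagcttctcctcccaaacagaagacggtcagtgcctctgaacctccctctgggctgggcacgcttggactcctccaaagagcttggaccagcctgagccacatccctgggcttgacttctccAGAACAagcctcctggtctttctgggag
FKBP5: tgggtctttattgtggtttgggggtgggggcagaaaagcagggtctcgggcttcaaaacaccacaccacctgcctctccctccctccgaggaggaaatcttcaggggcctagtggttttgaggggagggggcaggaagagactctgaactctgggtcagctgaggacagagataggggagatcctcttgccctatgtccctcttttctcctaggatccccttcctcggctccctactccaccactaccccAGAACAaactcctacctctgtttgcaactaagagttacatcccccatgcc
STK39, the other gene with a match (at base -112), did not pass with either shRNA, at log2 fold changes of 0.08 and -0.04. HPGD, INPP4B, KLK4 and PART1, which with KLK3 have the lowest mean changes among the genes with a promoter, held neither half-site in the window. A gene can have other starts, and the windows of HPGD, INPP4B and KLK4 each lie inside the annotated gene.

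Secreted and surface enzymes, the products by which the prostate is best known, gave 2 lower and 0 higher of 7 genes with shCENPA1 and 5 lower and 1 higher with shCENPA2. Their median log2 fold change was -0.47 and -0.79. Of all genes tested, 4.45% were lower and 2.69% higher with shCENPA1, and 10.5% and 8.05% with shCENPA2. The kallikreins KLK3, KLK2 and KLK4 lie close together on chromosome 19 (GRCh38, chr19:50854915-50860764, chr19:50861568-50880567 and chr19:50906351-50911395), and all 3 were lower with shCENPA2. KLK4, which encodes a secreted serine protease, was the most abundant of them, at 5.89 and 5.85 log2 RPKM in shNT, 4.95 and 5.15 with shCENPA1 and 4.64 and 4.20 with shCENPA2. All knockdown libraries of KLK4 lay below both controls. Its level fell by 43.4% with shCENPA1 (log2 fold change -0.82 ± 0.14, SE, adjusted p = 0.00674) and by 63.3% with shCENPA2 (-1.45, adjusted p = 0.000126). KLK3, which encodes prostate-specific antigen, was weakly expressed, with 85 to 359 reads per library, and stood at -0.48 log2 RPKM in each shNT library, -1.41 and -1.09 with shCENPA1 and -2.17 and -2.07 with shCENPA2. The 3 groups did not overlap. The decrease of 67.9% with shCENPA2 passed the test (log2 fold change -1.64 ± 0.24, adjusted p = 0.0016), and the value with shCENPA1, -0.77, did not (adjusted p = 0.0972). KLK2, which encodes a protease that can activate the KLK3 product, had 0.20 and 0.62 log2 RPKM in shNT, -0.20 and 0.08 with shCENPA1 and -0.49 and -0.77 with shCENPA2. The shCENPA2 libraries lay below all others, and KLK2 fell by 51.5% with shCENPA2 (log2 fold change -1.05 ± 0.22, adjusted p = 0.0103), against -0.47 with shCENPA1 (adjusted p = 0.25). KLK2 and KLK3 are paralogs, but only 0.217% of the 50-base stretches of KLK3 transcripts also occur in KLK2. The KLK4 call with shCENPA1 was lost without either shCENPA1 library (adjusted p = 0.0817 and 0.0586), and the KLK2 call with shCENPA2 was lost without shNT library 2 (adjusted p = 0.119).

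TMPRSS2 and ACPP gave different patterns. TMPRSS2, a surface serine protease whose androgen-driven promoter is often fused to ERG in prostate cancer, stood at 1.99 and 1.92 log2 RPKM in shNT, 2.09 and 2.19 with shCENPA1 and 1.28 and 1.04 with shCENPA2. Only the shCENPA2 libraries lay below the control. TMPRSS2 fell by 42.3% with shCENPA2 (log2 fold change -0.79 ± 0.13, adjusted p = 0.00331) and had a log2 fold change of 0.18 with shCENPA1 (95% interval -0.12 to 0.49; adjusted p = 0.471). ACPP, the gene of prostatic acid phosphatase (now ACP3), had 2.69 and 2.74 log2 RPKM in shNT, 2.11 and 2.00 with shCENPA1 and 1.92 and 2.03 with shCENPA2. All knockdown libraries lay below both controls at similar levels, with decreases of 36.7% (adjusted p = 0.00836) and 40.1% (adjusted p = 0.0021). The ACPP call with shCENPA1 was lost without shNT library 1, shNT library 2 or shCENPA1 library 2 (adjusted p = 0.0599, 0.107 and 0.0685).

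FOLH1 moved in the opposite direction. FOLH1 encodes prostate-specific membrane antigen, a surface peptidase that androgen is known to repress, and it was the most abundant of the 7 enzymes, at 7.23 and 7.25 log2 RPKM in shNT, 7.60 and 7.57 with shCENPA1 and 7.72 and 7.80 with shCENPA2. The 3 groups did not overlap. FOLH1 was 43.6% higher with shCENPA2 (log2 fold change 0.52 ± 0.09, adjusted p = 0.00472) and its value of 0.35 with shCENPA1 did not pass (adjusted p = 0.0624). Of the 50-base stretches of FOLH1, 20.8% also occur elsewhere, mostly in FOLH1B, so part of its reads could not be placed uniquely. The call with shCENPA2 was lost without either shNT library (adjusted p = 0.07 and 0.0584). ADAMTS1, a secreted metalloprotease, did not pass with either shRNA, at 0.05 and -0.20.

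**Figure D3:**
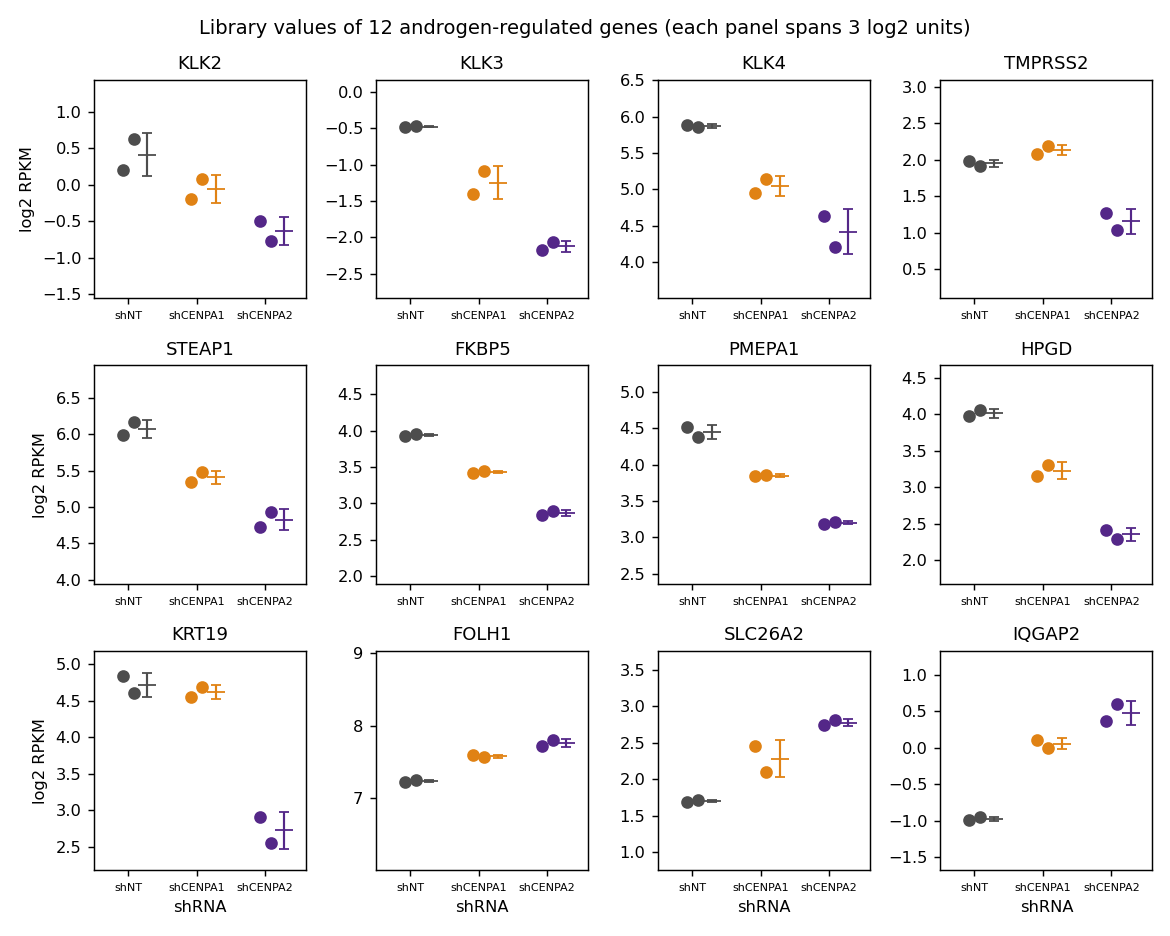
Log2 RPKM (y axis) of 12 genes in each library (points), with the mean and SD of the 2 libraries of a shRNA beside them (bars); every panel spans 3 log2 units. For KLK3, STEAP1, FKBP5, PMEPA1 and HPGD the levels step down from shNT over shCENPA1 to shCENPA2, whereas TMPRSS2 and KRT19 are low with shCENPA2 alone and FOLH1, SLC26A2 and IQGAP2 step up.

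Among transporters, channels and surface antigens, 6 of 8 genes had a row, and 2 were lower and 1 higher with each shRNA. The shares over all genes tested were 4.45% lower and 2.69% higher with shCENPA1, and 10.5% and 8.05% with shCENPA2. STEAP1, a six-transmembrane surface antigen of the prostate, stood at 5.99 and 6.16 log2 RPKM in shNT, 5.34 and 5.47 with shCENPA1 and 4.73 and 4.93 with shCENPA2. The 3 groups did not overlap, and STEAP1 fell by 36.9% with shCENPA1 (log2 fold change -0.66 ± 0.11, adjusted p = 0.00515) and by 57.8% with shCENPA2 (-1.25, adjusted p = 6.57e-05). STEAP1 shares 22.5% of its 50-base stretches with STEAP1B, and its call with shCENPA1 was lost without shNT library 2 or shCENPA1 library 1 (adjusted p = 0.0523 and 0.0584). Its neighbor on chromosome 7, STEAP2, a metalloreductase, had 5.48 and 5.66 log2 RPKM in shNT, 5.17 and 5.05 with shCENPA1 and 5.05 and 5.13 with shCENPA2. STEAP2 was lower by 27.1% (adjusted p = 0.0223) and 28.4% (adjusted p = 0.00823), with both knockdowns at about the same level. Its call with shCENPA1 was lost without any 1 of the 4 shNT and shCENPA1 libraries (adjusted p = 0.0511 to 0.328), and that with shCENPA2 without shNT library 2 (adjusted p = 0.126).

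SLC26A2, a sulfate transporter, was the member of this group that rose. It stood at 1.69 and 1.72 log2 RPKM in shNT, 2.46 and 2.1 with shCENPA1 and 2.75 and 2.81 with shCENPA2, so that the 3 groups did not overlap. The level was 1.49-fold that of shNT with shCENPA1 (adjusted p = 0.0359) and 2.1-fold with shCENPA2 (adjusted p = 0.000691). The call with shCENPA1 was lost without shNT library 1, shNT library 2 or shCENPA1 library 1 (adjusted p = 0.16, 0.176 and 0.113). SLC45A3, which encodes the luminal antigen prostein and is a classical androgen target, did not pass with either shRNA, at 1.5 and 1.46 log2 RPKM in shNT, 1.57 and 1.60 with shCENPA1 and 1.68 and 1.47 with shCENPA2. The 95% intervals of its log2 fold change ran from -0.20 to 0.41 and from -0.21 to 0.40. ABCC4, an efflux transporter, had log2 fold changes of -0.45 and -0.47 (adjusted p = 0.227 and 0.139), and ANKH, which serves pyrophosphate export, of -0.02 and -0.07.

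Of 7 transcription and receptor cofactors with a row, 2 were lower with shCENPA1 and 4 with shCENPA2, and none was higher. Among all genes tested, 4.45% were lower and 2.69% higher with shCENPA1, and 10.5% and 8.05% with shCENPA2. The median log2 fold change of the 7 genes was -0.21 and -0.53. FKBP5, a cochaperone of steroid receptors that androgen induces in a feedback loop, had 3.93 and 3.95 log2 RPKM in shNT, 3.42 and 3.44 with shCENPA1 and 2.84 and 2.90 with shCENPA2. Libraries of a shRNA differed by far less than the steps between shRNAs. FKBP5 fell by 29.8% with shCENPA1 (log2 fold change -0.51 ± 0.09, adjusted p = 0.00916) and by 52.4% with shCENPA2 (-1.07, adjusted p = 6.56e-05). ZBTB10, a zinc finger repressor, had 5.17 and 5.18 log2 RPKM in shNT, 4.43 and 4.41 with shCENPA1 and 3.95 and 4.07 with shCENPA2. The 3 groups did not overlap, and ZBTB10 fell by 40.8% (adjusted p = 0.000861) and 55.5% (adjusted p = 3.22e-05). The FKBP5 call with shCENPA1 was lost without shNT library 1, shNT library 2 or shCENPA1 library 2 (adjusted p = 0.0963, 0.135 and 0.0511).

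ELL2, an elongation factor of RNA polymerase II, stood at 3.74 and 3.67 log2 RPKM in shNT, 3.45 and 3.33 with shCENPA1 and 2.48 and 2.53 with shCENPA2. Its decrease of 56.5% with shCENPA2 passed the test (log2 fold change -1.20 ± 0.10, adjusted p = 5.38e-05), and the value with shCENPA1, -0.32, did not (adjusted p = 0.0917). SPDEF, an ETS factor of the luminal prostate, was lower by 30.7% with shCENPA2 (adjusted p = 0.0106), from 6.50 and 6.34 log2 RPKM in shNT to 6.01 and 5.77. The shCENPA1 libraries of SPDEF, at 6.13 and 6.29 log2 RPKM, lay between (log2 fold change -0.21; adjusted p = 0.316), and its call with shCENPA2 was lost without shNT library 1 or shCENPA2 library 2 (adjusted p = 0.094 and 0.0595). ARID5B, a chromatin-binding cofactor with the highest mean change of these genes, stood at 3.34 and 3.23 log2 RPKM in shNT, 3.44 and 3.27 with shCENPA1 and 3.23 and 3.39 with shCENPA2, and the groups overlapped. ARID5B, TSC22D1 and ZMIZ1 did not pass, with log2 fold changes from -0.17 to 0.07 with shCENPA1 and from -0.12 to 0.02 with shCENPA2.

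Signaling, receptor and adhesion genes gave 1 lower and 1 higher of 12 with shCENPA1 and 4 lower and 2 higher with shCENPA2. Against these counts stand 4.45% lower and 2.69% higher of all genes tested with shCENPA1, and 10.5% and 8.05% with shCENPA2. PMEPA1, a transmembrane protein that restrains transforming growth factor-β signaling, stood at 4.51 and 4.37 log2 RPKM in shNT, 3.84 and 3.86 with shCENPA1 and 3.19 and 3.21 with shCENPA2. The 3 groups did not overlap. PMEPA1 fell by 33.7% with shCENPA1 (log2 fold change -0.59 ± 0.09, adjusted p = 0.00441) and by 57.7% with shCENPA2 (-1.24, adjusted p = 3.26e-05). INPP4B, a lipid phosphatase that opposes phosphoinositide 3-kinase signaling, was weakly expressed, with 183 to 591 reads per library, and had -1.38 and -1.19 log2 RPKM in shNT, -1.96 and -2.64 with shCENPA1 and -2.69 and -2.44 with shCENPA2. All knockdown libraries lay below both controls, but the spread between the shCENPA1 libraries was wide. INPP4B fell by 58.9% with shCENPA2 (log2 fold change -1.28 ± 0.32, adjusted p = 0.023), and the value of -1.02 with shCENPA1 did not pass (adjusted p = 0.0989). The PMEPA1 call with shCENPA1 was lost without shNT library 1 (adjusted p = 0.0745), and the INPP4B call with shCENPA2 without shNT library 1, shNT library 2 or shCENPA2 library 1 (adjusted p = 0.0876, 0.162 and 0.0654).

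NDRG1, a differentiation and stress-response gene, had 1.61 and 1.63 log2 RPKM in shNT, 1.31 and 1.11 with shCENPA1 and 0.78 and 0.92 with shCENPA2. The 3 groups did not overlap, and the decrease of 41.3% with shCENPA2 passed the test (log2 fold change -0.77 ± 0.14, adjusted p = 0.00575), whereas -0.41 with shCENPA1 did not (adjusted p = 0.132). PTK2B, a focal adhesion kinase relative, was lower by 28.6% with shCENPA2 (adjusted p = 0.00661), with -0.29 and an adjusted p of 0.103 with shCENPA1. The NDRG1 call with shCENPA2 was lost without shNT library 2 (adjusted p = 0.0523) and the PTK2B call without shNT library 1 (adjusted p = 0.0755).

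IQGAP2, a scaffold protein of the cytoskeleton, showed the largest increase of the 51 genes with each shRNA. It had -0.99 and -0.95 log2 RPKM in shNT, 0.11 and 0.00 with shCENPA1 and 0.36 and 0.60 with shCENPA2, so that the 3 groups did not overlap. The level was 2.04-fold that of shNT with shCENPA1 (log2 fold change 1.03 ± 0.19, adjusted p = 0.0109) and 2.74-fold with shCENPA2 (1.45, adjusted p = 0.000763). BMPR1B, a receptor of bone morphogenetic proteins, was 1.82-fold higher with shCENPA2 (adjusted p = 0.0107), from 0.76 and 0.46 log2 RPKM in shNT to 1.28 and 1.66, and its value with shCENPA1 was 0.63 (adjusted p = 0.076). The IQGAP2 call with shCENPA1 was lost without any 1 of the 4 shNT and shCENPA1 libraries (adjusted p = 0.0678 to 0.0727), and the BMPR1B call with shCENPA2 without shNT library 2 or shCENPA2 library 2 (adjusted p = 0.0831 and 0.053), while BMPR1B passed with shCENPA1 without either shCENPA2 library (adjusted p = 0.0474 and 0.0493). CAMKK2, STK39, LIFR, ITGAV, AKAP12 and HOMER2 did not pass, with log2 fold changes from -0.53 to 0.11 with shCENPA1 and from -0.33 to 0.27 with shCENPA2.

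**Figure D4:**
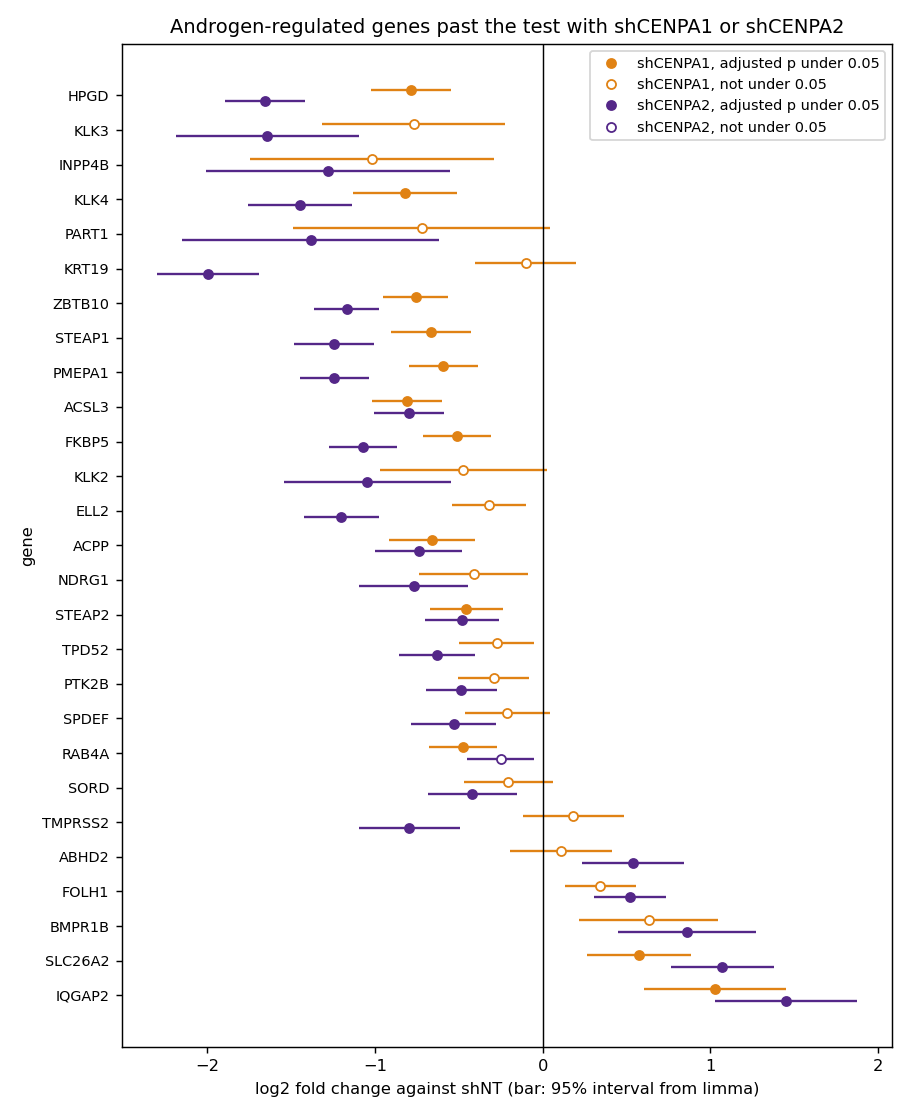
Log2 fold change against shNT (x axis, points) with the 95% interval from limma (bars) for the genes that passed the test with shCENPA1 (orange) or shCENPA2 (purple), ordered by mean change; filled points passed the test. The purple points lie left of the orange ones for HPGD, KLK3, KRT19, STEAP1, PMEPA1, FKBP5, ELL2 and TMPRSS2, and the points of ACSL3 (-0.81 and -0.80) and STEAP2 (-0.46 and -0.48) coincide.

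Metabolic enzymes gave 2 lower of 9 genes with a row with shCENPA1, and 3 lower and 1 higher with shCENPA2. Over all genes tested, 4.45% were lower and 2.69% higher with shCENPA1, and 10.5% and 8.05% with shCENPA2. HPGD, which inactivates prostaglandins, had the lowest mean change of the 51 genes, with 3.97 and 4.05 log2 RPKM in shNT, 3.15 and 3.31 with shCENPA1 and 2.42 and 2.29 with shCENPA2. The 3 groups stood clearly apart, and HPGD fell by 42% with shCENPA1 (log2 fold change -0.79 ± 0.11, adjusted p = 0.00201) and by 68.3% with shCENPA2 (-1.66, adjusted p = 1.59e-05). ACSL3, which activates long-chain fatty acids, went from 3.95 and 4.01 log2 RPKM in shNT to 3.14 and 3.20 with shCENPA1 and 3.15 and 3.22 with shCENPA2. Both knockdowns thus reached the same level, 42.8% (adjusted p = 0.00091) and 42.4% (adjusted p = 0.000415) below the control. SORD, which converts sorbitol to fructose, was lower by 25.2% with shCENPA2 (adjusted p = 0.0363) and had -0.21 with shCENPA1 (adjusted p = 0.35). Of its 50-base stretches 15.1% occur elsewhere, mostly in the pseudogene SORD2P. ABHD2, a lipase, had 3.07 and 3.13 log2 RPKM in shNT, 3.39 and 3.03 with shCENPA1 and 3.53 and 3.75 with shCENPA2. It was 45.4% higher with shCENPA2 (adjusted p = 0.0223) and had 0.11 with shCENPA1 (adjusted p = 0.684). The SORD call with shCENPA2 was lost without any 1 of the 4 shNT and shCENPA2 libraries (adjusted p = 0.0674 to 0.273), and the ABHD2 call without shNT library 1, shNT library 2 or shCENPA2 library 2 (adjusted p = 0.0947, 0.0656 and 0.104). DBI, GSR, PGM3, UAP1 and SMS did not pass, with log2 fold changes from -0.42 to 0.13 with shCENPA1 and from -0.45 to 0.25 with shCENPA2.

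In the group of cytoskeletal, trafficking and other genes, 1 of 10 was lower with shCENPA1 and 3 with shCENPA2, and none was higher. For all genes tested the shares were 4.45% lower and 2.69% higher with shCENPA1, and 10.5% and 8.05% with shCENPA2. KRT19, a keratin of simple epithelia, was the gene that differed most between the shRNAs, with 4.84 and 4.60 log2 RPKM in shNT, 4.55 and 4.68 with shCENPA1 and 2.90 and 2.54 with shCENPA2. The shCENPA1 libraries overlapped the control and the shCENPA2 libraries lay far below it. KRT19 fell by 74.9% with shCENPA2 (log2 fold change -2.0 ± 0.13, adjusted p = 2.03e-05), the lowest value of any of the 51 genes, and had -0.10 with shCENPA1 (95% interval -0.40 to 0.20; adjusted p = 0.705). Its luminal partner keratin KRT8 did not pass, at 5.90 and 5.70 log2 RPKM in shNT, 5.63 and 5.81 with shCENPA1 and 5.79 and 5.65 with shCENPA2, with all groups overlapping and 95% intervals from -0.32 to 0.16 and from -0.32 to 0.17. TPD52, a trafficking protein often overexpressed in prostate cancer, was lower by 35.3% with shCENPA2 (adjusted p = 0.00235) and had -0.27 with shCENPA1 (adjusted p = 0.145). TPD52 and KRT8 share 10.9% and 10.1% of their 50-base stretches with other genes. RAB4A, a small GTPase of recycling endosomes, went from 4.52 and 4.47 log2 RPKM in shNT to 4.00 and 4.04 with shCENPA1 and 4.19 and 4.31 with shCENPA2. It was the 1 gene that passed with shCENPA1 (28.1% lower, adjusted p = 0.0123) and not with shCENPA2 (15.9% lower, adjusted p = 0.0844), though the difference between the shRNAs, 0.23, did not pass (adjusted p = 0.315).

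PART1, a prostate long noncoding RNA induced by androgen, had -0.30 and -0.47 log2 RPKM in shNT, -1.17 and -1.04 with shCENPA1 and -2.31 and -1.22 with shCENPA2, on 162 to 857 reads per library. All knockdown libraries lay below both controls, with a wide spread between the shCENPA2 libraries, and PART1 fell by 61.6% with shCENPA2 (log2 fold change -1.38 ± 0.34, adjusted p = 0.0207), against -0.72 with shCENPA1 (adjusted p = 0.254). The PART1 call was lost without shNT library 1 or either shCENPA1 library (adjusted p = 0.0785, 0.0575 and 0.0571), and the RAB4A call with shCENPA1 without any 1 of the 4 shNT and shCENPA1 libraries (adjusted p = 0.0608 to 0.135). PDLIM5, a scaffold of the actin cytoskeleton, had 3.38 and 3.41 log2 RPKM in shNT, 3.46 and 3.29 with shCENPA1 and 3.58 and 3.56 with shCENPA2, the highest mean change of the group (adjusted p = 0.265 with shCENPA2). MAP7, PDLIM5, VAPA, SPCS3 and HERC3 did not pass, with log2 fold changes from -0.33 to -0.03 with shCENPA1 and from -0.20 to 0.17 with shCENPA2.

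Comparing the shRNAs directly, 7 of 51 genes were lower with shCENPA2 than with shCENPA1 (13.7%, against 1.03% of all genes tested) and 0 were higher (against 0.39%). The 7 were KRT19 (log2 difference -1.89), TMPRSS2 (-0.98), ELL2 (-0.88), HPGD (-0.87), PMEPA1 (-0.65), STEAP1 (-0.58) and FKBP5 (-0.56), with adjusted p-values from 0.000289 to 0.0329. Only KRT19 also exceeded a log2 difference of 1 in size (1 gene, against 0.554%). The median difference over the 51 genes was -0.04, against 0.00 over all genes, and both shCENPA2 libraries lay below both shCENPA1 libraries for 22 genes (43.1%, against 20.2%) and above them for 11 (21.6%, against 17.9%). KLK3 and KLK4, at -0.87 and -0.62, did not pass (adjusted p = 0.147 and 0.0687). KLK4 passed without shNT library 1, shNT library 2 or shCENPA2 library 1 (adjusted p = 0.0389, 0.0361 and 0.0153), with only the groups compared in the fit (0.0363), with voom (0.0445) and with lanes as replicates (0.00858). The CENPA transcript was itself lower with shCENPA2, a difference whose part in these values was not tested. The count of 7 became 3 without shCENPA1 library 1 and 2 without shCENPA1 library 2. KRT19 and ELL2 passed whichever library was left out.

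Pioneer and epithelial factors known to act in the androgen response passed the test in part. Most genes of the longer list they belong to, which also holds coregulators, passed with neither shRNA. The median log2 fold change of that list was -0.10 with shCENPA1 and 0.06 with shCENPA2. GRHL2, an epithelial factor, was lower by 23.6% (adjusted p = 0.0342) and 21.4% (adjusted p = 0.0277). FOXA1 and GATA2 passed with shCENPA2 alone (log2 fold changes -0.31 and -0.55; adjusted p = 0.0448 and 0.0335), and HOXB13 rose with it by 0.47 (adjusted p = 0.0164). Some of these calls depended on the processing. FOXA1 was lost with lane 8 alone, median-centred libraries, a replicate block or limma without the trend (adjusted p = 0.0515, 0.0804, 0.0806 and 0.101). Without the trend GRHL2 was lost with each shRNA (0.106 and 0.0822). GATA2 with shCENPA2 was lost without the trend (0.103) and with only the groups compared in the fit (0.076). The calls of all these factors also depended on single libraries. GRHL2 was lost without either shNT library or without library 2 of the shRNA compared (adjusted p = 0.0888 to 0.248) and FOXA1 without any 1 of the 4 shNT and shCENPA2 libraries (0.0538 to 0.345). HOXB13 was lost without shNT library 1, shNT library 2 or shCENPA2 library 1 (0.0883, 0.203 and 0.0813), and GATA2 without shNT library 1, either shCENPA1 library or shCENPA2 library 2 (0.137, 0.0773, 0.0757 and 0.114), while GATA2 passed with shCENPA1 without either shCENPA2 library (0.0229 and 0.0231).

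A further list of 54 other androgen response genes, of which 49 had a row, gave 8 lower and 0 higher with shCENPA1 (against 4.45% and 2.69% of all genes tested) and 12 lower and 0 higher with shCENPA2 (against 10.5% and 8.05%), with medians of -0.04 and -0.07. SCD, which desaturates fatty acids, went from 7.47 and 7.46 log2 RPKM in shNT to 5.08 and 4.94 with shCENPA1 and 5.71 and 5.65 with shCENPA2, and fell by 81.8% (adjusted p = 2.72e-06) and 71.1% (adjusted p = 6.3e-06). AZGP1, a secreted glycoprotein of prostatic fluid, went from 4.80 and 4.60 to 3.34 and 3.55 and to 2.87 and 2.72 log2 RPKM and fell by 58% (adjusted p = 0.000301) and 73.4% (adjusted p = 1.4e-05). CENPN, a centromere protein, had log2 fold changes of -0.70 and -0.79, both past the test. Of 5 genes that androgen is known to repress, 4 had a row. None passed with shCENPA1, and with shCENPA2 UGT2B15 and UGT2B17, enzymes that glucuronidate androgens, were lower (log2 fold changes -2.12 and -1.61; adjusted p = 0.00685 and 0.0032), CAMK2N1 was higher (0.41, adjusted p = 0.0245) and MET had -0.38 (adjusted p = 0.127). UGT2B15 rests on 16 to 165 reads per library, and it shares 26.7% of its 50-base stretches with UGT2B17, so the reads of this pair are uncertain. With lanes as replicates the UGT2B15 call was lost (adjusted p = 0.0549), and the CAMK2N1 call was lost without shNT library 1, shNT library 2 or shCENPA2 library 2 (adjusted p = 0.115, 0.186 and 0.0919).

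Genes of dividing cells fell with each shRNA. All 10 proliferation genes listed were lower with each shRNA, against 4.45% (shCENPA1) and 10.5% (shCENPA2) of all genes tested. The medians of the 10 genes were -1.15 and -1.61, against 0.00 and 0.01 over all genes tested. The summed level of the 10 was 222 and 234 RPKM in shNT, 101 and 102 with shCENPA1 and 82.1 and 78.4 with shCENPA2. MKI67 (-1.40 and -1.66), TOP2A (-1.34 and -1.71), CCNA2 (-1.28 and -1.63) and BUB1 (-1.31 and -1.60), which serve the cell cycle and mitosis, had the lowest mean changes, and the BUB1 call with shCENPA1 was lost without shCENPA1 library 2 (adjusted p = 0.0544). The part of these decreases in the levels of the androgen-regulated genes was not tested.

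Markers of luminal prostate epithelium, the kind of cell this line is known as, were present, with a row for all 8 and a summed level of 631 to 688 RPKM in shNT, 684 to 730 with shCENPA1 and 656 to 703 with shCENPA2. KRT8, KRT18, EPCAM and CDH1 did not pass with either shRNA. With shCENPA2, KRT19 (-2.0) and SPDEF (-0.53) were lower and HOXB13 (0.47) was higher, against 10.5% and 8.05% of all genes tested. The summed level thus does not show the change of each marker. All 5 basal markers, among them KRT5 and TP63, had no row. Of 8 neuroendocrine markers 5 had a row, with a summed level of 109 to 110 RPKM in shNT, 104 to 115 with shCENPA1 and 93.4 to 96.2 with shCENPA2. With shCENPA1, 1 of the 5 was lower and 2 were higher, against 4.45% and 2.69% of all genes tested. With shCENPA2, 1 was lower and 1 higher, against 10.5% and 8.05%. CHGA was low and higher with each shRNA (log2 fold changes 2.06 and 1.76; adjusted p = 0.000968 and 0.00102), ENO2 was lower (-0.39 and -0.52; adjusted p = 0.0356 and 0.00469), and the defining factor INSM1 had no row. Of 8 fibroblast and endothelial markers 3 had a row (3.68 to 3.95 RPKM in shNT, 3.55 to 3.57 with shCENPA1 and 5.86 to 5.98 with shCENPA2). With shCENPA1 1 of the 3 was higher and with shCENPA2 2, against 2.69% and 8.05% of all genes tested, and 0 were lower. DCN was higher with each shRNA (1.93 and 1.48) and LUM with shCENPA2 (0.74). LUM had -0.41 with shCENPA1, which did not pass. Between the shRNAs LUM was higher with shCENPA2 by 1.15, a call lost without shCENPA1 library 2. COL1A2, COL3A1 and PECAM1 had no row. The leukocyte marker PTPRC had no row. CHGB, which like CHGA encodes a granin of secretory granules, was higher with shCENPA1 (0.41, adjusted p = 0.039) and had 0.08 with shCENPA2 (adjusted p = 0.632), and its call was lost without any 1 of the 4 shNT and shCENPA1 libraries (adjusted p = 0.0524 to 0.381). The ENO2 call with shCENPA1 was lost without any 1 of the 4 shNT and shCENPA1 libraries (adjusted p = 0.114 to 0.35) and that with shCENPA2 without shNT library 2 (adjusted p = 0.0545), and the DCN call with shCENPA1 without shCENPA1 library 2 (adjusted p = 0.0595). The part of these markers in the results was not tested.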

How the data were processed

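The authors trimmed reads with Trim Galore, aligned them to hg38 with STAR, counted them on genes with HTSeq and processed the counts with edgeR (versions not given in the sources used here), and deposited log2 RPKM for each of 12 runs, with a small prior count, so that changes of weak genes are drawn towards 0. Libraries were strand-specific poly(A) preparations. Whole reads were recovered from the deposited log2 values for 14828 of 14828 genes, to within 6e-08 of a whole read (tolerance 0.0001), and gave the depths. At these depths counting error is small for most genes and precision rests on having 2 libraries per shRNA.

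From these values, a mean over the 2 lanes was taken for each library, genes whose log2 RPKM averaged below -3 were dropped, and the other 14624 entered one model without covariates over 6 libraries in 3 groups (limma 3.58.1, R 4.3.3, eBayes with a trend after lmFit), and p-values were adjusted by Benjamini-Hochberg over all genes tested. The fit and the recovery of reads were tested on simulated data. The deposited unit, log2 RPKM, called for limma. Libraries with the same number were not treated as paired, since the labels state no pairing. The correlations of their deviations, -0.06 to -0.15, cannot settle it, since with 2 libraries per shRNA their sign depends on the numbering.

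Named were all genes with a log2 change beyond 1 past the test in any comparison, 11 canonical targets, the lowest and highest mean change in each role group, CENPA, FOXA1, HOXB13, GATA2, coregulators past the test with both shRNAs and up to 4 examples per further list. ACPP, ACSL3, RAB4A, SPDEF, PTK2B, SORD, TPD52, BMPR1B, the UGT2B pair, CAMK2N1, MET, CHGB and LUM were added since counts turn on them. Some genes under this rule are not reported here. Genes and lists were chosen with earlier results of these data known. Positions are from GENCODE 44 on GRCh38. Alternatives were single lanes, lanes as replicates, a replicate block, other filters, 0.1 or 1 added to RPKM, median-centred or quantile-normalized libraries, no trend, only the groups compared, voom on recovered reads, an adjusted p under 0.01 and each library left out.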

Additional observations from a re-analysis of the deposited data

Results flagged for a closer look

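Genes are listed here because the difference between both CENPA-targeted shRNAs passed the test itself (limma, adjusted p under 0.05 over all genes tested). KRT19 was lower with shCENPA2 than with shCENPA1 by a log2 difference of -1.89 (adjusted p = 0.000289), with shCENPA1 at the level of the control. TMPRSS2 differed by -0.98 (adjusted p = 0.00878), with a fold change above 0 for shCENPA1 and below 0 for shCENPA2. ELL2 differed by -0.88 (adjusted p = 0.00345). HPGD differed by -0.87 (adjusted p = 0.00531). PMEPA1 differed by -0.65 (adjusted p = 0.00993), STEAP1 by -0.58 (adjusted p = 0.0329) and FKBP5 by -0.56 (adjusted p = 0.0198). In limma without the trend, PMEPA1, STEAP1 and FKBP5 missed the threshold (adjusted p = 0.0597, 0.129 and 0.0722). HPGD missed the threshold without shCENPA1 library 2 (adjusted p = 0.0877), TMPRSS2 and PMEPA1 without either shCENPA1 library (adjusted p = 0.0693 and 0.148 for TMPRSS2, 0.0693 and 0.126 for PMEPA1), FKBP5 without either shCENPA1 library or shCENPA2 library 2 (0.0759, 0.154 and 0.0529), and STEAP1 without any 1 of the shCENPA1 and shCENPA2 libraries (0.0531 to 0.31).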

How the results depend on the processing

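Under 20 alternatives, 256 of 297 counts and medians over the 51 genes stayed close to the values given and 41 moved. Single genes were compared under up to 19 of these, without the adjusted p under 0.01. Of 2994 values of single genes, 2823 kept their side of the threshold, 134 lost a call, 37 gained one and 0 called values changed sign.

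With lane 8 alone, 0 genes were higher by over 1 (log2) with shCENPA1 and 2 were lower by over 1 with shCENPA2 than with shCENPA1. With lanes as replicates, 4 genes were higher with shCENPA1, and between the shRNAs 11 were lower and 2 higher. The replicate block, for libraries that share a number, left 1 gene higher with shCENPA1 and moved no other count by over 1.5 times. The filter at a mean of 0, which kept 44 of the genes, gave 1 higher with shCENPA1, 0 higher by over 1 with shCENPA1, 1 higher by over 1 with shCENPA2 and a median of -0.22 with shCENPA2. Adding 0.1 to RPKM gave 0 higher by over 1 with shCENPA1. Adding 1, which shrinks changes of weak genes, gave 0 higher by over 1 with either shRNA, 7 lower by over 1 with shCENPA2 and a median of -0.21 with shCENPA2. Without the trend, 1 gene was higher with shCENPA1 and 4 were lower between the shRNAs. Voom gave 1 lower by over 1 with shCENPA1. At an adjusted p under 0.01, 0 genes were higher with shCENPA1 (0 also by over 1) and 3 with shCENPA2. The cause of the other shifts was not tested.

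With 1 library left out, which leaves a group with a single library assumed to vary like the others, 5 to 10 genes were lower and 0 to 3 higher with shCENPA1 (0 to 1 by over 1), 16 to 22 lower and 2 to 5 higher with shCENPA2, and 2 to 8 lower between the shRNAs (1 to 2 by over 1), where the median ran from -0.12 to -0.021.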
